A study of Mus musculus with 55 samples.

Results

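The results concern immature B cells set against small pre-BII cells, the step of bone marrow B cell development at which IgM first reaches the cell surface. The comparison was chosen by the sample titles and holds 20 of the 55 arrays of the series. These were 5 preparations of immature B cells (sorts 1, 2, 8, 9 and 11) and 5 of small pre-BII cells (sorts 1, 3, 8, 9 and 10), each put on 2 array designs with different probe sets, named here the first set and the b set. Small pre-BII cells had been sorted as small B220+CD25+ cells that lacked surface immunoglobulin. Immature cells were sorted as B220low cells with surface IgM, although 1 of the labels, that of sort 1 on the first set, names no gate. The labels name mouse bone marrow and total RNA and give no strain, age, genotype or treatment. Whether each preparation stands for its own animal or for a pool is not stated. The p-values therefore measure only how preparations scatter, taken over all 26 preparations of the 5 populations in the fit. Part of that scatter may be technical, and the number of arrays limits the precision.

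A pre-B cell that has made a heavy chain stops dividing and rearranges its light chain genes with the recombinase encoded by Rag1 and Rag2. A light chain that pairs with the heavy chain lets IgM appear on the surface with the signalling chains CD79A and CD79B. The resulting immature B cell can bind antigen, is tested for self-reactivity, and starts to display MHC class II molecules, which present peptides to T cells. Mature B cells of the marrow are the next population along this path, and large pre-BII cells, which divide, precede the small ones.

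Levels are array intensities after normalisation between arrays. A noise limit was set at 2 robust standard deviations of the negative values of each table, which gave 251 (first set) and 319 (b set). Each fold is the ratio between means of the 5 preparations of each population with values under the limit raised to it. A log2 difference printed with an SE is the log2 of that ratio. The SE comes from the spread of the log2 values of the single preparations. A fold is a lower bound, written "at least", where the dimmer population lay at the limit throughout. The test was limma's. In the main fit it used values floored below the noise limit, so its p-values do not test exactly the printed fold. Every adjusted p was adjusted by Benjamini-Hochberg over the probe sets of both tables that were tested in that comparison. A lower level in such sorted populations can mean fewer cells with the transcript or less transcript in each cell, and these cannot be told apart.

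Of 10229 probe sets tested, 229 changed between small pre-BII and immature B cells (2.24%). In immature cells 136 were higher (1.33%) and 93 were lower (0.909%). The unadjusted p was under 0.05 for 1001 probe sets. Among the 229, the preparations of the 2 populations did not overlap for 190, against 339 of all those tested (3.31%). With 1 probe set per gene, the brightest, 76 of 5028 genes were higher (1.51%) and 73 were lower (1.45%). The noise limit left 167 of the 229 with a measured fold, 47 with a bound and 15 with every preparation of both populations under it.

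A control for 18S ribosomal RNA set sorts 1 to 3, where it read 1447 to 14135 in the populations compared, apart from sorts 8 to 11, where it was negative. Within sorts 1 to 3, immature sort 2 read lowest on both sets, 3741 on the first and 1447 on the b set. Both populations have preparations in each batch, and a fit with a term for the batch called 150 probe sets higher and 101 lower. Without immature sort 2 the numbers were 108 and 86. Sorts 1, 8 and 9 are shared by both populations, and with the sort number as a block 276 probe sets changed.

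The labelled populations were checked on genes of the gates and on Ms4a1, Rag1 and Ccnd2. The gate genes themselves gave little contrast. Ighm, the heavy chain of IgM, read 15059, 15265, 10127, 13534 and 17423 in the 5 small pre-BII preparations on its brightest probe set. In immature cells it read 15059, 11994, 12681, 14854 and 16743. The ranges overlapped and the adjusted p was 1.0, while surface IgM, which set the gate, is not read by an array. Il2ra, the CD25 of the pre-BII gate, exceeded the noise limit on 1 probe set in 1 of 10 preparations, small pre-BII sort 1 at 437, and Kit, a growth factor receptor of earlier progenitors, in none. Ptprc, the gene of B220, rose from a mean of 4464 ± 599 to 8324 ± 911 (SD, n = 5 each), a 1.86-fold difference with adjusted p = 0.000462. The gate took immature cells with low B220, an isoform of the protein that this probe set was not shown to distinguish.

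Ms4a1 had the highest measured fold of the named rises, among which lower bounds such as that of H2-Eb1 cannot be ranked. It encodes CD20, a B cell surface protein that regulates calcium entry. Its level in small pre-BII sorts 1, 3, 8, 9 and 10 was 286, 556, 172, 135 and 355. In immature sorts 1, 2, 8, 9 and 11 it was 8972, 6891, 5970, 5273 and 8543. The lowest immature preparation lay far above the highest small pre-BII preparation, and 2 of the 5 small pre-BII values were under the noise limit. The fold was 21.0 (log2 difference 4.39 ± 0.26 SE, adjusted p = 2.87e-10). A second probe set, with a higher level in small pre-BII cells, rose 6.22-fold from 1934 ± 496 to 12030 ± 1848 (SD, n = 5 each, adjusted p = 8.28e-08). The noise-limited log2 difference of the leading probe set was 4.24 within sorts 1 to 3 and 4.53 within sorts 8 to 11.

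Ccnd2, a D-type cyclin that couples receptor signals to entry into the cell cycle, was under the noise limit in each small pre-BII preparation. In immature cells it read 2296, 2873, 1829, 1329 and 2363. All 5 immature values exceeded the limit, and the rise was at least 8.50-fold (adjusted p = 3.71e-11). In mature B cells it was again under the limit in all 5 preparations, with values from -45.4 to 136. Pre-BI cells, the earliest of the 5 populations, also had it above the limit, at a mean of 821. The fall from immature to mature cells passed the test (adjusted p = 1.04e-10), and the change at the small pre-BII to immature step differed from that at the next step with adjusted p = 4.31e-12.

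Rag1, the catalytic recombinase subunit, showed the opposite pattern. Small pre-BII preparations read 6221, 5247, 2938, 3313 and 8190. Immature preparations read 186, 109, 118, 106 and 96.4, all under the noise limit. The groups did not come near each other, and the fall was at least 20.6-fold (adjusted p = 3.71e-11). Within sorts 1 to 3 the noise-limited log2 difference was -4.51 and within sorts 8 to 11 it was -4.26. From large to small pre-BII cells Rag1 had risen (adjusted p = 7.57e-05), and the changes at these 2 steps differed with adjusted p = 4.28e-09.

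**Figure D1:**
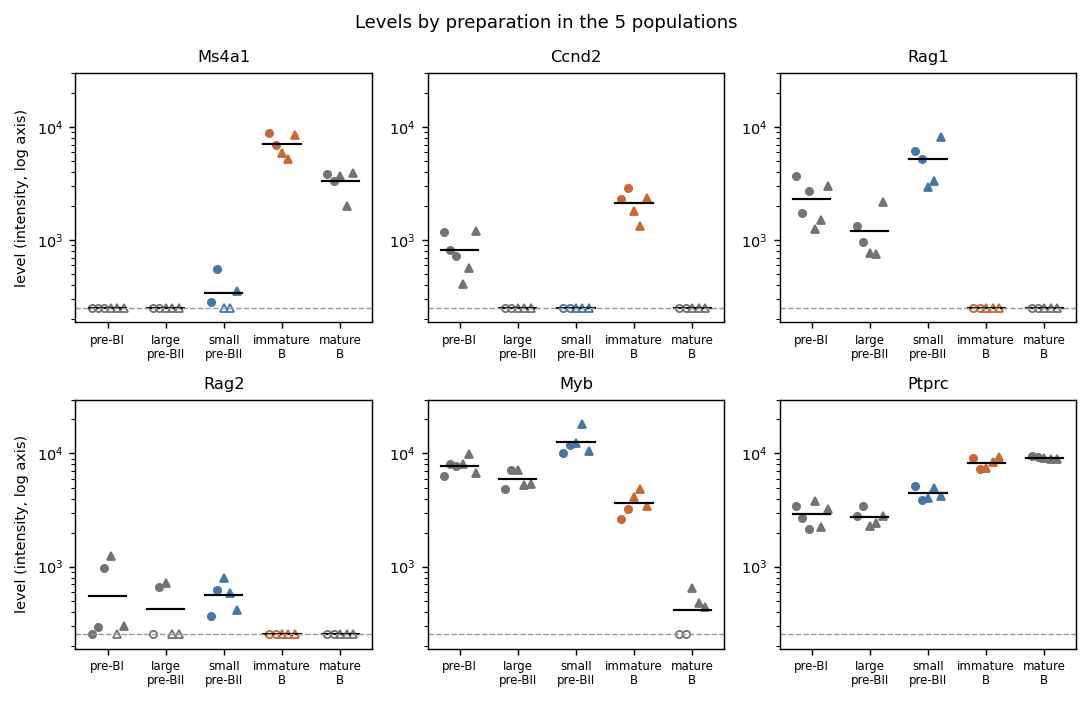
Levels of Ms4a1, Ccnd2, Rag1, Rag2, Myb and Ptprc on a log axis in the preparations of the 5 populations, with a bar at each mean of noise-limited values. Circles are sorts 1 to 3 and triangles sorts 8 to 11, open symbols lie at the noise limit (dashed line), small pre-BII cells are blue and immature B cells orange. Rag1 and Rag2 lie at the limit in all 5 immature preparations. Ccnd2 lies above it in pre-BI and immature cells and not in large pre-BII, small pre-BII or mature cells.

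Promoter stretches of 5 genes are shown because 8 class II list genes rose and class II promoters are known to share short boxes bound by a common set of factors. The 130 bases before the RefSeq start of H2-Aa, H2-Eb1 and H2-DMb1, which rose, are given beside those of H2-Ob, which did not pass the test, and of Rag1, which fell. Capitals mark GATTGG, the core of the Y box, and AACNGATG, letters of the X box, each searched on both strands, so that CCAATC in H2-Eb1 is GATTGG read on the other strand. No stretch shown has overlapping matches. The sequences are from the RefSeq table of build GRCm38.p6 and run 5′ to 3′ on the strand of the gene.

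H2-Aa: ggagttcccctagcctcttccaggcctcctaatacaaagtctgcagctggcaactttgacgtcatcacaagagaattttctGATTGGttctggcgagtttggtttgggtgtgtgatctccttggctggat
H2-Eb1: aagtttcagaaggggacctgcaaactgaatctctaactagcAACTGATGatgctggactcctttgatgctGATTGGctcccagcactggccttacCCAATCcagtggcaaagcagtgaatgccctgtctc
H2-DMb1: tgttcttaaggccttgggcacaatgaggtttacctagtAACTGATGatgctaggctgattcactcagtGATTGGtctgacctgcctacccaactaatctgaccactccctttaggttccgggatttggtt
H2-Ob: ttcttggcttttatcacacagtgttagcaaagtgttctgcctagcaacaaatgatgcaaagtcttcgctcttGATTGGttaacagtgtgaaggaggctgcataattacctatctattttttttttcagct
Rag1: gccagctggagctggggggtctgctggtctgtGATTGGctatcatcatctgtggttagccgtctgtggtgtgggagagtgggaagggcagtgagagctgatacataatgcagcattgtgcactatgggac

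These stretches are chr17:34287824-34287953 (minus strand) for H2-Aa, chr17:34305737-34305866 (plus) for H2-Eb1, chr17:34153061-34153190 (plus) for H2-DMb1, chr17:34238775-34238904 (plus) for H2-Ob and chr2:101649533-101649662 (minus) for Rag1, all upstream of the annotated start. The leftmost GATTGG of each stretch begins 49 bases before the start in H2-Aa, 60 in H2-Eb1, 62 in H2-DMb1 and 58 in H2-Ob, and 98 bases before it in Rag1. In the 250 bases upstream of the start, GATTGG was present in 5 of the 10 class II list genes that the table holds and in 14.6% of all 32851 promoters. AACNGATG was present in 3 of those 10 genes and in 1.98% of all promoters. The stretches printed all hold GATTGG, which not every class II list gene that rose did. H2-DMa, which also rose, held neither motif, and Ctss, which rose too, held AACNGATG but not GATTGG. H2-Oa, which did not pass, held GATTGG. A match describes the letters only.

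By share of the genes tested, the class II list had the most that rose. Of 16 genes tested, 8 were higher in immature cells and none was lower, and the median log2 difference of the list in the fit was 1.01, against -0.01 over all 5028 genes. Between noise-limited values it was 0.94, against 0.0 over all genes. H2-Aa, the alpha chain of I-A, read 1715, 1175, 1717, 1307 and 1476 in small pre-BII and 9738, 9962, 12847, 10453 and 10453 in immature cells on its brightest probe set. Every immature value was above every small pre-BII value, and the fold was 7.23 (log2 difference 2.86 ± 0.13 SE, adjusted p = 1.59e-05). The other 4 probe sets of H2-Aa rose too, 3.86- to 8.28-fold. All 4 were designed to family sequences, so related transcripts may add to them. The probe set that rose 6.08-fold lost its call in a fit of only the 10 preparations compared (adjusted p = 0.0638).

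H2-Eb1, the beta chain of I-E, was negative in 4 of 5 small pre-BII preparations and under the limit, at 23.6, in the remaining one. In immature cells it read 3063, 5407, 4524, 3789 and 5593, at least 14-fold higher (adjusted p = 8.32e-06). Another H2-Eb1 probe set did not pass, with means of 696.5 and 721.9 (adjusted p = 0.964), so the gene's probe sets disagreed. H2-Ab1, the beta chain of I-A, read 16.4, -57, 369, 172 and 340 in small pre-BII and 1866, 1576, 3490, 3845 and 3845 in immature cells. Here 2 small pre-BII values were above the limit, and the gene rose 8.78-fold (adjusted p = 0.0114). Its adjusted p was 0.0588 in a fit of only the 10 preparations compared.

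The invariant chain and the peptide loading genes moved the same way. Cd74, the invariant chain that guides class II molecules to the endosome, was already present in small pre-BII cells at 5645, 3283, 3922, 4059 and 3693. It read 21583, 17450, 13058, 21583 and 20048 in immature cells. The ranges were far apart. As 21583 is the highest value that normalisation gives on the b set, the rise of 4.55-fold may be understated (log2 difference 2.19 ± 0.19 SE, adjusted p = 0.000522). H2-DMb1, a chain of the H2-DM molecule that exchanges peptides, rose 3.13-fold (adjusted p = 0.000211). Its partner H2-DMa rose at least 2.85-fold (adjusted p = 1.41e-07). Of the inhibitory H2-DO chains, H2-Ob had means of 1151 and 2273 (adjusted p = 0.207) and H2-Oa of 550 and 974 (adjusted p = 0.333), and neither passed.

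Among the proteases listed with class II, Ctsh, cathepsin H, exceeded the limit in 1 small pre-BII preparation, barely, at 252. In immature cells it read 1715, 1925, 2830, 2185 and 2745, 9.07-fold higher with adjusted p = 1.07e-06. Ctss, cathepsin S, which trims the invariant chain, rose 1.86-fold from 3926 ± 1104 to 7322 ± 855 (SD, n = 5 each, adjusted p = 0.00567). H2-DMa and Ctss, the remaining class II genes that rose, were named after their values were seen. The class I list gave no such shift, with 1 of 17 genes higher, Psmb8 of the immunoproteasome (1.71-fold, adjusted p = 0.028), and 1 lower, H2-Q1, whose values were all under the limit. Psmb8 lost its call in 5 of 10 fits that left out 1 preparation (highest adjusted p 0.1), and H2-Q1 in 8 (highest 0.0846). A second Psmb8 probe set rose 1.85-fold (adjusted p = 0.00257).

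**Figure D2:**
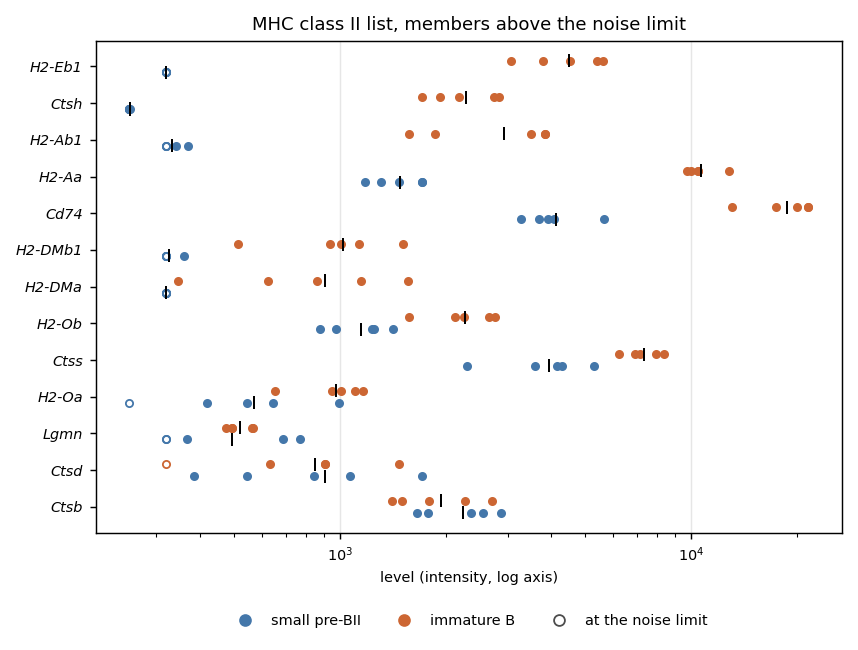
Levels on a log axis of the 13 class II list genes above the noise limit in at least 5 of the 10 preparations, by the brightest probe set, ordered by the noise-limited log2 difference. Each circle is a preparation, black ticks are means and open circles lie at the limit. The orange immature values lie wholly to the right of the blue small pre-BII values for H2-Aa, H2-Eb1, Cd74 and Ctsh.

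Class II genes are also expressed by monocytes and dendritic cells, so granulocyte and monocyte genes were read beside them. Of 15 such genes tested, 1 passed and was higher, Prtn3 (at least 1.27-fold, adjusted p = 0.0391). That call was lost in 8 of 10 fits that left out 1 preparation (highest adjusted p 0.139) and had an adjusted p of 0.062 with the sort number as a block. The summed level of the list ran from 4782 to 6815 in small pre-BII and from 6603 to 9177 in immature preparations. The brightest members were Lyz2, lysozyme, with means of 1781 and 2949 (adjusted p = 0.211), and Ngp, with 1779 and 2610 (adjusted p = 0.702). Mpo, Ltf, Fcgr3 and Mmp9 were under the limit in all 10 preparations. The part of these cells in the class II result was not tested.

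The surface and costimulation list had 8 of 24 genes higher and none lower, with a median log2 difference of 0.52 in the fit and 0.355 between noise-limited values. Cd83, a surface protein that stabilises class II on B cells, read 58.4, 353, 316, 102 and 340 in small pre-BII cells. In immature cells it read 3114, 2057, 2202, 2457 and 3493. The groups were far apart, with an 8.82-fold rise (log2 difference 3.14 ± 0.18 SE, adjusted p = 1.14e-06). Fcer2a, the low-affinity IgE receptor CD23, was under the limit in small pre-BII cells and read 1218, 2176, 1019, 1403 and 1871 in immature cells. This was at least 6.12-fold higher (adjusted p = 3.25e-07, and 0.0696 with values floored lower, at the 25th percentile), and Fcer2a rose again in mature cells (adjusted p = 0.00108), to a mean of 6485.

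Other members of this list rose by less. Ltb, the lymphotoxin beta chain, rose 5.26-fold (adjusted p = 7.87e-05), and Il4ra, the interleukin 4 receptor alpha chain, rose 3.41-fold from 469 to 1601 (adjusted p = 0.00168, and 0.57 with the lower floor). Ly86, the MD-1 partner of RP105, rose 2.15-fold on 1 probe set and 3.04-fold on the other (adjusted p = 0.00355 and 0.00496). In a fit of only the 10 preparations compared, these calls (0.11 and 0.0503) and that of Il4ra (0.0622) were lost, and the lower floor ended that of the second Ly86 probe set (0.367). Cd53 and Cd40 also passed and were named after their values were seen. Cd53, a tetraspanin, was 2.06-fold higher (adjusted p = 0.00767). Cd40, the receptor for T cell help, was at least 1.52-fold higher (adjusted p = 3.78e-06) and reached only 378 ± 104 (SD, n = 5). Marker genes of mature and activated B cells overlap this list, and 2 of 9 tested were higher, Fcer2a and Cxcr5. The Cxcr5 call was lost with the floor at the noise limit (adjusted p = 0.893). The summed level of the 9 marker genes was 4952 to 8409 in small pre-BII and 6736 to 11192 in immature preparations. Of the genes that rose most, Ccnd2 and Cfp were under the limit in mature cells, while Fcer2a, H2-Eb1 and Ltb had means of 6485, 14960 and 4300 there. The part of mature cells in the result was not tested.

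Of 10 inhibitory coreceptors and phosphatases tested, Cd22 and Ptpn6 were higher and none was lower. Cd22, a sialic acid-binding coreceptor, read 377, 758, 273, 30.1 and 298 in small pre-BII and 2669, 4534, 2541, 2415 and 3769 in immature cells, an 8.14-fold rise (adjusted p = 3.35e-05). Ptpn6, the tyrosine phosphatase SHP-1 that CD22 recruits, read 2103, 1919, 985, 1458 and 1810 and then 8473, 8266, 4859, 5607 and 8900. Neither gene's ranges overlapped, and Ptpn6 rose 4.36-fold (log2 difference 2.13 ± 0.26 SE, adjusted p = 1.01e-05). The Cd22 call was lost at a floor at the 25th percentile (adjusted p = 0.0701).

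The receptor chains themselves gave no call. Cd79b, a signalling chain of the receptor, had means of 11860 ± 1540 and 12820 ± 765 (SD, n = 5 each, adjusted p = 0.961), and Syk, the kinase bound to it, 11970 ± 1592 and 8329 ± 606 (adjusted p = 0.367). Of 15 chains and kinases of the receptor, Ptprc alone was called. None of 17 genes of signalling downstream was called, among them Rac2 (adjusted p = 0.962), which reached the highest value of the b set, 21583, in 5 of the 10 preparations, and Cdc42 (adjusted p = 0.992). Of 7 immunoglobulin genes tested, none was called. Iglc1, a lambda light chain constant gene, read 5305, 5694, 7612, 3903 and 4534 in small pre-BII and 8900, 7612, 6969, 6891 and 6413 in immature cells (adjusted p = 0.537). It had risen from large to small pre-BII cells (adjusted p = 7.34e-12) and it fell from immature to mature cells (adjusted p = 1.62e-05).

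Further leading rises fell outside these lists. Pld4, an endolysosomal nuclease, read 62.1, 435, 656, 205 and 566 in small pre-BII and 3877, 5795, 3044, 4295 and 5941 in immature cells, a 10.6-fold rise (adjusted p = 0.000458). Sema4d, a semaphorin on lymphocytes, rose 8.33-fold (adjusted p = 1.71e-05), while its other probe set had means of 377 and 306 (adjusted p = 0.988). Lat2, an adaptor of the receptor pathway, rose at least 7.69-fold (adjusted p = 5.96e-08). Scd1, a fatty acid desaturase, read 623, 1518, 1487, 4373 and 1563 and then 5200, 7420, 14512, 17423 and 11409. Its lowest immature value exceeded its highest small pre-BII value, with a 5.85-fold rise (adjusted p = 0.00082). Cfp, properdin of the complement pathway, rose at least 5.36-fold (adjusted p = 0.00521, and 0.0659 in a fit of only the 10 preparations compared) on 1 probe set, and its other had no preparation above the limit.

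**Figure D3:**
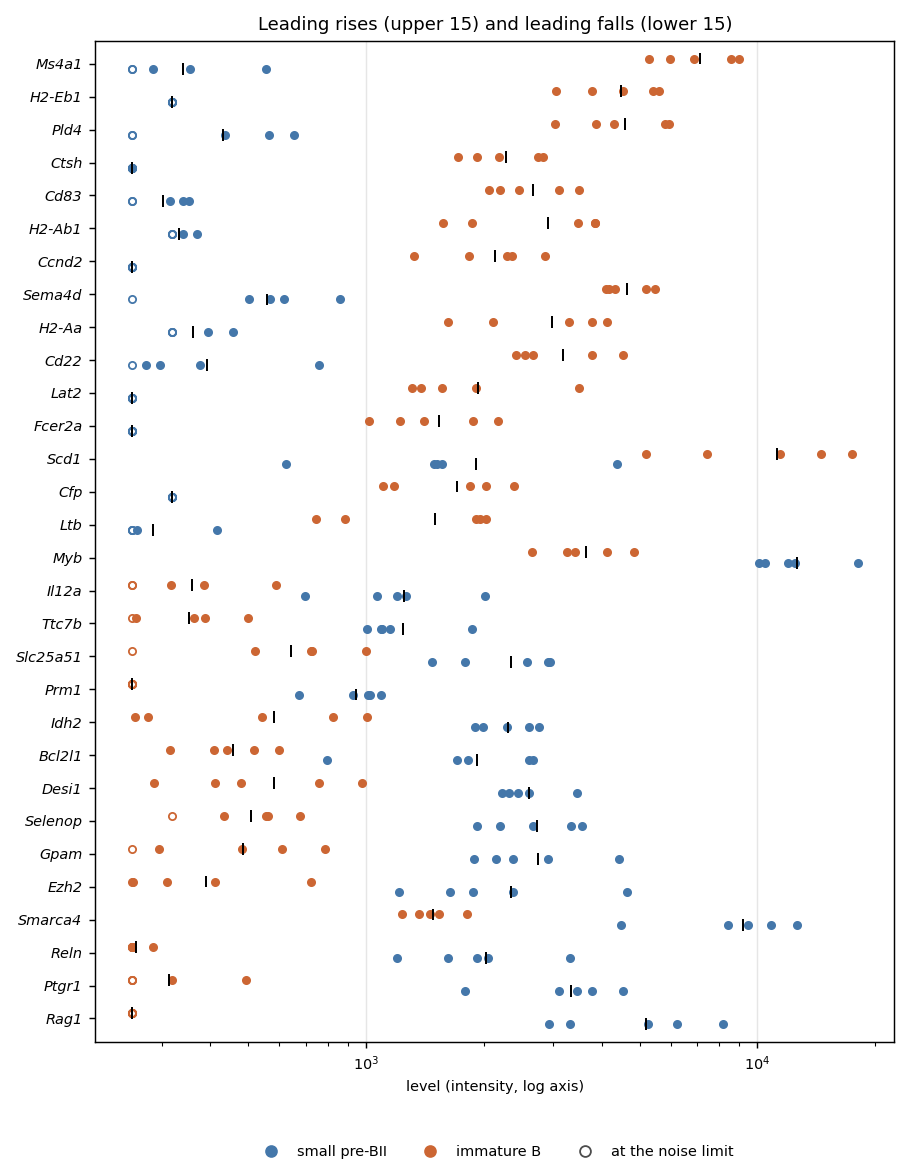
Levels on a log axis of the 15 leading rises and 15 leading falls, by the size of the noise-limited log2 difference. Each circle is a preparation, ticks are means and open circles lie at the limit; the genes were chosen so that the 5 preparations of each population do not overlap, so the separation is a condition of the choice. Folds, with lower bounds entered as such, run from 5.26 to 21.0 for the rises and from 3.45 to 20.6, the bound of Rag1, for the falls.

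Recombination genes fell by unequal amounts. Of 13 genes of V(D)J recombination and end joining tested, 4 were lower and none was higher. The median log2 difference was -0.57 in the fit and -0.32 between noise-limited values. Rag2, the partner of Rag1, read 369, 627, 796, 585 and 412 in small pre-BII cells and was negative in all 5 immature preparations. Every small pre-BII value was above the limit, and the fall was at least 2.22-fold (adjusted p = 0.00408). With the floor raised to the noise limit its adjusted p was 0.105. Hmgb1 and Hmgb2, chromatin proteins that stimulate RAG cleavage, fell 1.82-fold (adjusted p = 0.000764) and 2.97-fold (adjusted p = 0.00307). The Hmgb1 call was lost with 75th-percentile scaling (adjusted p = 0.164), and that of Hmgb2, above the limit in 1 of 5 immature preparations, in a fit of only the 10 preparations compared (adjusted p = 0.203).

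Among genes of the pre-B cell receptor and of progenitors, Myb alone was called by the brightest probe set. Of 19 tested, 1 was lower by that probe set and none higher. With any probe set counted, 2 genes were lower. The median log2 difference of the list was -0.87 in the fit and 0.0 between noise-limited values, and 9 of the 19 genes were above the limit in at least 5 of the 10 preparations. Myb, a transcription factor of progenitor cells, read 10073, 11994, 12455, 18089 and 10453 in small pre-BII and 2656, 3254, 4125, 4832 and 3424 in immature cells. The ranges did not overlap, and it fell 3.45-fold (adjusted p = 0.000147). Myb fell further in mature cells (adjusted p = 7.33e-09). Another Myb probe set, under the limit in all 10 preparations, did not pass (adjusted p = 0.357). The brightest other members did not pass. Cd24a, the heat-stable antigen, had means of 12970 and 13960 (adjusted p = 0.884), and Ly6d, a surface marker of B cell commitment, 9620 and 13590 (adjusted p = 0.368, and 0.0372 with the sort number as a block).

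Transcription factors went both ways, with 3 of 25 listed genes higher and 3 lower. Irf8, Id3 and Mef2c rose and Myb, Irf4 and Tcf12 fell. Irf8 read 807, 1183, 662, 1392 and 1758 and then 2342, 2693, 3692, 3753 and 3712. Irf8, an interferon regulatory factor, rose 2.79-fold (adjusted p = 0.000211), Id3, an inhibitor of E proteins, 2.62-fold (adjusted p = 0.000552), and Mef2c 3.82-fold (adjusted p = 0.00524) on 1 of its 2 probe sets. Irf4, which acts with Irf8 in light chain rearrangement, read 2957, 5200, 1746, 8190 and 6743 and then 765, 1407, 1347, 2043 and 1315. The lowest small pre-BII value lay within the immature range, and it fell 3.61-fold (adjusted p = 0.0132). The Irf4 call was lost without small pre-BII sort 9 (adjusted p = 0.0567) and without immature sort 1 (adjusted p = 0.0524), and in a fit of only the 10 preparations compared (0.114). Tcf12, an E protein, fell 2.61-fold (adjusted p = 0.00112).

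Smarca4 and Ezh2 were among the leading falls. Smarca4, the ATPase of the SWI/SNF remodeller, read 8391, 10859, 4490, 9484 and 12600 and then 1816, 1538, 1456, 1366 and 1232, a 6.19-fold fall (log2 difference -2.63 ± 0.27 SE, adjusted p = 9.66e-09). Ezh2, the histone methyltransferase of Polycomb, read 4635, 1636, 2371, 1211 and 1871 and then 723, 411, 309, 254 and 203, a 6.02-fold fall (adjusted p = 3.87e-05). In both genes the groups were apart. Of 42 genes of G2 and mitosis tested, 6 were lower and none higher. The median log2 difference was -0.37 in the fit and -0.13 between noise-limited values. Mki67, a proliferation antigen, fell 2.75-fold (adjusted p = 0.000218), Cenpa, the centromeric histone, 2.42-fold (adjusted p = 0.00243) and Ccnb2, a mitotic cyclin, at least 2.22-fold (adjusted p = 0.000647).

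The remaining mitosis calls were weaker. Kif2c, a spindle depolymerase, fell at least 1.67-fold (adjusted p = 0.0164), and its call was lost without small pre-BII sort 9 (adjusted p = 0.0655), immature sort 2 (0.0594) or immature sort 8 (0.0612). Small pre-BII sort 9 carried its highest value, 868, against 205 to 357 in the others. Another Kif2c probe set, under the limit in all 10 preparations, did not pass. Lmnb1, lamin B1, fell 2.17-fold (adjusted p = 0.0495) and lost its call in 7 of 10 fits without 1 preparation (highest adjusted p 0.167), and with the sort number as a block (adjusted p = 0.0772). Hmgb2, counted here too, is described above. In a fit of only the 10 preparations compared, 3 genes of the list were lower. DNA replication gave 1 of 33 genes higher, Rfc1, and 1 lower, Rrm2, the ribonucleotide reductase subunit, which fell 4.5-fold from 2124 to 473 (adjusted p = 0.0102, and 0.264 in a fit of only the 10 preparations compared). Rfc1 had adjusted p = 0.0147, 0.0687 with the sort number as a block, 0.0514 without small pre-BII sort 9 and 0.0628 without immature sort 2. Of 4 Rrm2 probe sets, the other 3 did not pass.

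Ccnd2 was the one gene called of 14 G1 cyclins, Cdks and E2F genes. Ccnd3, the D cyclin of dividing pre-B cells, had means of 2858 and 1740 in non-overlapping groups (adjusted p = 0.14), and passed with the sort number as a block (adjusted p = 0.000549). A second Ccnd3 probe set had means of 2898 and 1894 in overlapping groups. It passed neither in the main fit (adjusted p = 0.803) nor with the block (0.683), so the gene's probe sets disagreed. Of 18 Cdk inhibitors and anti-proliferative genes, Ccng2 alone passed and was lower (1.72-fold, adjusted p = 0.00147). Btg2, an anti-proliferative gene, had means of 6612 and 3999 (adjusted p = 0.0755).

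Survival genes changed in opposite directions. Mcl1, an anti-apoptotic protein, read 3707, 3538, 1773, 3611 and 2315 and then 7832, 6029, 6250, 5829 and 8329, a 2.29-fold rise (adjusted p = 0.0106). Bcl2l1, which encodes the anti-apoptotic Bcl-xL, read 2611, 1712, 794, 2671 and 1818 and then 517, 441, 316, 599 and 408, a 4.21-fold fall (adjusted p = 0.0182). Neither gene's groups overlapped. These were the calls of 22 survival genes by the brightest probe set. The Bcl2l1 call was lost without small pre-BII sort 1 (adjusted p = 0.0573), small pre-BII sort 9 (0.0619) or immature sort 8 (0.0598), and at a floor at the 25th percentile (adjusted p = 0.535), and its other 2 probe sets did not pass.

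By the brightest probe set, the list of NF-kB and immediate-early genes had 2 of 24 higher and none lower. Another probe set of Nfkbia, an NF-kB inhibitor named after its values were seen, was lower. Egr1, an immediate-early factor, read 255, 504, 509, 833 and 414 and then 2226, 803, 1047, 2091 and 1106. The highest small pre-BII value overlapped the lowest immature value, and it rose 2.89-fold (adjusted p = 0.0115, and 0.111 in a fit of only the 10 preparations compared). Ier2 was at least 2.08-fold higher (adjusted p = 0.000211, and 0.0866 with the floor at the 25th percentile). Homing genes were 2 higher and 1 lower of 18. Cxcr4, the receptor for stromal CXCL12, fell 3.41-fold (adjusted p = 0.0402), a call lost in 8 of 10 fits without 1 preparation (highest adjusted p 0.148), and its other probe set did not pass (adjusted p = 0.121). Cnr2, a cannabinoid receptor, was at least 1.79-fold higher (adjusted p = 0.0311), a call lost in 7 (highest 0.113). Cxcr5 was above the limit in 2 of 5 immature preparations and under it in the small pre-BII cells (adjusted p = 0.000746). Its adjusted p was 0.893 with the floor raised to the noise limit, so the call rested on values under that limit. Of 20 cytokine receptor and Jak-Stat genes, Il4ra was higher and Socs1, an inhibitor of Jak signalling, lower. Socs1 exceeded the limit in small pre-BII sorts 1, 3 and 10, at 2120, 1040 and 1148, and in no immature one (adjusted p = 0.0431, lost in 8 of 10 fits without 1 preparation, highest adjusted p 0.149).

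Actin genes were 4 higher and 2 lower of 35. Lcp1, the actin bundler L-plastin, read 1194, 2171, 2286, 3188 and 1991 and then 7420, 7090, 9317, 9469 and 8641, a 3.87-fold rise with groups apart (adjusted p = 1.14e-06). Capg, an actin capper, rose 3.31-fold (adjusted p = 0.000458), while Ezr rose 2.02-fold (adjusted p = 0.028). Actn4 was above the limit in 3 of 5 immature preparations and in no small pre-BII one. It was at least 1.16-fold higher (adjusted p = 0.022, and 0.916 with the floor at the noise limit). Marcks fell 2.33-fold (adjusted p = 0.0455) and Myl4 2.41-fold (adjusted p = 0.00674, and 0.0554 with the floor at the 25th percentile). The Ezr call was lost without small pre-BII sort 9 (adjusted p = 0.11), immature sort 1 (0.102) or immature sort 11 (0.107), and calls were lost in 5 of 10 fits without 1 preparation for Actn4 (highest adjusted p 0.0893) and 6 for Marcks (highest 0.161). Further probe sets of Actn4, Capg, Lcp1 and Marcks did not pass, that of Actn4 with both populations wholly under the limit (adjusted p = 0.915). Of 12 glycolysis genes, Slc16a1, a lactate transporter, alone passed and fell at least 3.22-fold (adjusted p = 4.37e-07). The other Slc16a1 probe set did not pass (adjusted p = 0.715). None of 26 ribosome biogenesis and translation genes and none of 22 chaperones passed, among them Eef1a1 (adjusted p = 0.991) and Hspa8 (adjusted p = 0.865). The interferon list had 2 of 24 genes higher, Psmb8 and Gbp7, the latter at least 2.12-fold (adjusted p = 0.00913, and 0.0515 with the sort number as a block).

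Most other leading falls were in none of the lists. Ptgr1, a prostaglandin reductase, fell 10.7-fold and 9.38-fold on its 2 probe sets (adjusted p = 3.66e-08 and 9.34e-10). Reln, the extracellular protein reelin, read 1199, 2046, 1921, 3326 and 1620 and then 223, 252, 286, 89 and 166, a 7.83-fold fall (adjusted p = 2.50e-08). Gpam, which starts glycerolipid synthesis, fell 5.68-fold, Selenop, a selenium carrier, 5.38-fold, and Idh2, mitochondrial isocitrate dehydrogenase, 3.98-fold. The adjusted p-values were 5.36e-05, 3.88e-06 and 0.000189. A second Selenop probe set did not pass (adjusted p = 0.152). Desi1 fell 4.48-fold (adjusted p = 4.53e-06), Slc25a51, a mitochondrial carrier, 3.65-fold, Ttc7b 3.53-fold and Il12a 3.48-fold. With the sort number as a block the Il12a call was lost (adjusted p = 0.0594). In a fit of only the 10 preparations compared, that of this Slc25a51 probe set was lost (adjusted p = 0.122). Prm1, a sperm protamine, read 927, 1010, 1021, 673 and 1092 in small pre-BII cells and was under the limit in immature ones (at least 3.76-fold, adjusted p = 2.58e-07). Its probe set and others ending in _f_at were designed to family sequences, so related transcripts may add to them.

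**Figure D4:**
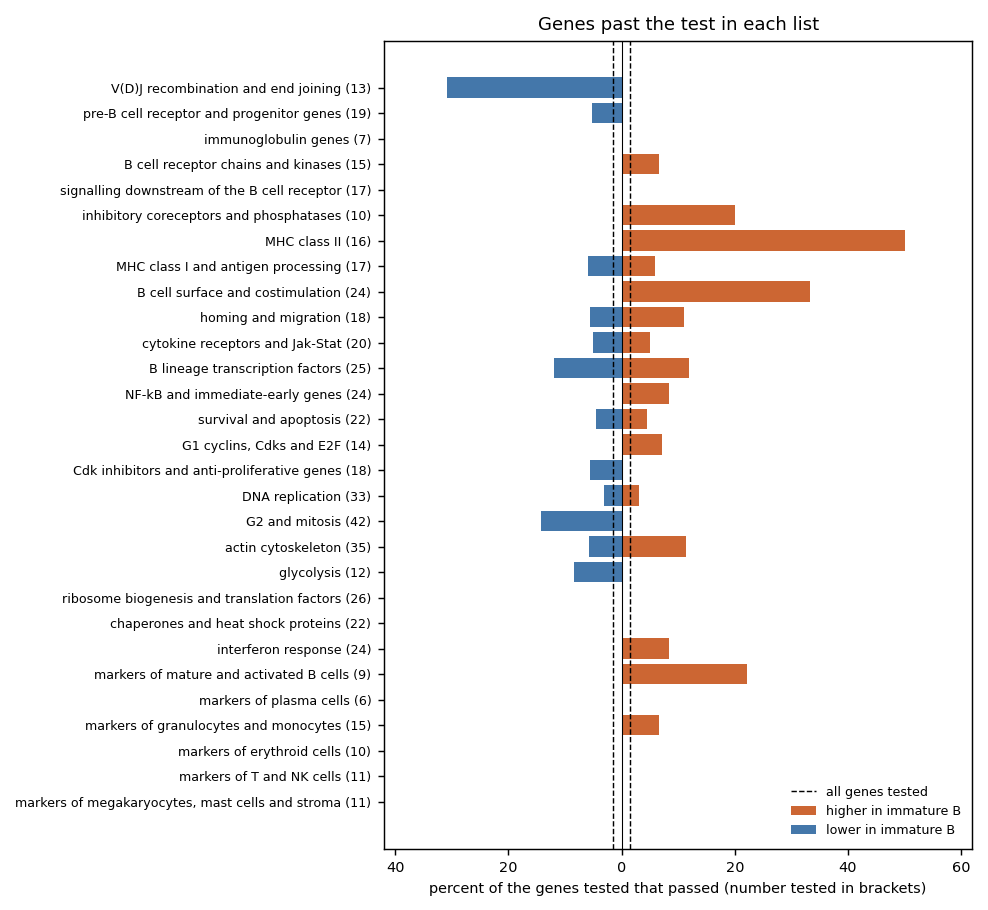
Share of the genes tested in each of 29 lists that passed the limma test, with higher genes to the right and lower genes to the left, by the brightest probe set. Dashed lines are the shares over all 5028 genes, 1.51% higher and 1.45% lower. The class II list (8 of 16 higher) and the V(D)J list (4 of 13 lower) reach farthest.

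The change at this step was set against those at the neighbouring steps, with which it shares samples. It differed from the change at the immature to mature step for 101 probe sets (0.987%) and from that at the large to small pre-BII step for 262 (2.56%). Of the 15 leading rises, 7 differed from the next step (Ccnd2, Cd83, Cfp, Lat2, Ms4a1, Pld4 and Sema4d) and 10 from the preceding one. Of the 15 leading falls, 7 differed from the next step (Desi1, Prm1, Ptgr1, Rag1, Reln, Selenop and Smarca4) and 12 from the preceding one. The leading genes were chosen for a large change at this step, which both comparisons contain. High counts among them therefore follow in part from the choice. Side by side, noise-limited means in small pre-BII, immature and mature cells were 432, 4590 and 1079 for Pld4, and 503, 1454 and 730 for Egr1. They were 319, 4475 and 14960 for H2-Eb1, whose change was not shown to differ from the next step (adjusted p = 0.0872).

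**Figure D5:**
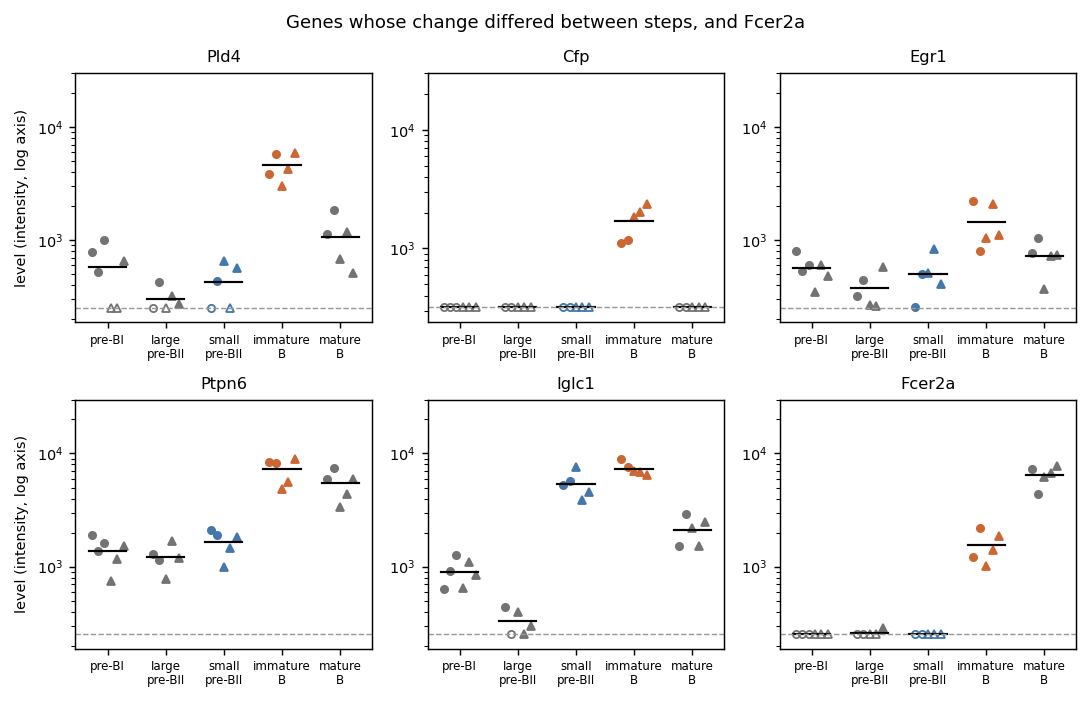
Levels of Pld4, Cfp, Egr1, Ptpn6, Iglc1 and Fcer2a by preparation in the 5 populations, drawn as in the plot of Ms4a1 and Rag1. Pld4 and Cfp are highest in immature cells, while Fcer2a is higher still in mature cells, with means of 1537 and 6485.

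Other cell types were sought through their markers. Erythroid genes were readable, with Hba-a1 at a mean of 8675 in small pre-BII and 10520 in immature cells (adjusted p = 0.725) and Hbb-b2 at 2793 and 5033 (adjusted p = 0.313). None of 10 erythroid genes passed, and their summed level ran from 8194 to 17325 and from 15452 to 21168. None of 6 plasma cell genes passed, with sums of 611 to 857 and 554 to 1320, Xbp1 at 288 and 416 and Prdm1 under the limit in immature cells. None of 11 T and NK cell genes, such as Cd3e, passed, with sums of 560 to 1739 and 346 to 765, and 7 were under the limit in all 10 preparations. None of 11 megakaryocyte, mast cell and stromal genes passed, with sums of 635 to 1235 and 708 to 1127, and 9 were under the limit throughout. The part of these cells in the results was not tested.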

How the data were processed

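RNA of sorted mouse bone marrow B lineage cells was read on 2 array sets. The authors deposited linear intensity values, negatives included, for 6529 and 6540 probe sets besides controls. Their labelling, scanning, summarisation and scaling are not given in the sources used here. All gene symbols came from GEO's platform annotation, which can be old: of 13069 probe sets other than the 110 controls, 7553 had 1 symbol, 224 several and 5292 none. One mature B array was identical to another and counted once.

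Each table was quantile-normalised, arrays of a preparation were averaged, a floor was set at the 40th percentile of each table (87.6 and 6.89), and the floored values were put on a log2 scale. A probe set entered the fit if 5 or more of the 26 preparations exceeded the floor, and the fit was made over all 5 populations (limma 3.58.1 in R 4.3.3, with a variance trend), with Benjamini-Hochberg adjustment and a threshold of 0.05. The fit was tested on simulated data. Contrasts of neighbouring steps came from the same fit.

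The main fit had no term for the sort number, and equal numbers were treated as pairs only in the alternative fit with that block. Deviations of same-numbered preparations correlated at 0.251 (sort 1), 0.137 (sort 8) and 0.192 (sort 9). Those of different numbers ran from -0.172 to 0.187 over 22 pairs, so the pairing is weak, and the labels say nothing of a shared day. The members and lists were chosen with earlier results of these data known. Named genes are Ms4a1, Rag1, Ccnd2 and 4 gate genes, the 15 largest rises and falls among 1-symbol probe sets that passed, differed at least 2-fold and did not overlap, up to 6 passing members of each list (the 2 brightest where fewer than 2 passed or for other cell types), and disagreeing probe sets. Alternatives of scaling, floor, filter, fit, block and left-out preparations were run.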

Additional observations from a re-analysis of the deposited data

Results flagged for a closer look

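Of 151 groups of 5 preparations examined among the named probe sets, 7 had a preparation standing apart. The ratio of its gap to the group's range was above 0.71. Chance alone marks such a gap in some groups of this size, and whether 7 exceeds that number was not tested. Eef2, a translation elongation factor, read 510 in small pre-BII sort 8 against 4082 to 5894 in the other preparations (ratio 0.85). Ezr read 496 in small pre-BII sort 9 against 867 to 1009 (ratio 0.786). Kif2c read 868 in the same sort against 205 to 357 (ratio 0.717). Ttc7b read 1860 in small pre-BII sort 10 against 1006 to 1148 (ratio 0.785). In immature cells, H2-Aa read 12847 in sort 8 against 9738 to 10453 (ratio 0.744), and the second Ms4a1 probe set read 8900 in sort 8 against 12169 to 13759 (ratio 0.718). Tcf12 read 1164 in immature sort 1 against 815 to 841 (ratio 0.912). The causes were not tested.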

How the results depend on the processing

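No named probe set that passed in the main fit reversed its direction under an alternative. Changes of sign among named probe sets that did not pass were not counted. Of 79 named probe sets that passed, 64 also passed without each preparation in turn and 14 passed under every alternative that gave a value. A floor at the 25th percentile kept 63 of the 79, and a fit of only the 10 preparations compared kept 56. Without normalisation the count of changed probe sets was 72, of which 48 were higher and 24 lower, with 5 class II, 5 surface and 3 G2 and mitosis genes called. Fewer preparations gave fewer calls: sorts 1 to 3 alone gave 44 (24 higher, 20 lower), with 5 class II genes, 1 surface, 2 V(D)J and 1 mitosis gene. Sorts 8 to 11 alone gave 121 (70 higher, 51 lower), with 5 surface, 2 V(D)J and 3 mitosis genes. In a fit of only the 10 preparations compared, 3 mitosis genes were called. With the floor at the noise limit, 162 probe sets differed from the next step, against 101. The causes were not tested. Leaving out 1 preparation gave 187 to 221 changed probe sets, 107 to 132 higher and 72 to 93 lower, with 8 class II, 8 surface, 4 to 5 V(D)J and 4 to 7 mitosis genes, 72 to 99 against the next step and 183 to 258 against the preceding one. With the sort number as a replicate block, 276 changed, with 8 class II, 9 surface, 4 V(D)J and 7 mitosis genes, 136 against the next step and 330 against the preceding one. Among named probe sets this block changed the calls given beside the results, those of Cct2 and of a further Marcks probe set, which passed, and that of the second Slc25a51 probe set, which did not, and no other. Only 40% of the first set's values and 20.1% of the b set's exceeded the noise limit, which limits what dim genes can show.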
